A study of Capsicum chinense and Capsicum frutescens with 8 samples.

Results

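miR3711 and miR894 are a pair of miRNA families that were abundant in some pepper libraries and listed with single reads in others. They were chosen from their measured reads, as all conserved entries with the full miR number of miR3711 or miR894, which gave 16 of 5915 entries and 2 of 1336 families. Each library listed exactly 1 entry of each family, pab-miR3711 and ppt-miR894, whose prefixes are the miRBase codes of Norway spruce (Picea abies) and of the moss Physcomitrella patens. The names therefore point to sequences first described in a conifer and a moss, and not in a nightshade.

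The libraries were made from stem, flower buds, pooled fruit and leaf of Acc. 4 of C. frutescens and of Bhut jolokia, a very pungent C. chinense, with 1 genotype per species, raised in a glass house with no treatment named. The fruit samples combined stages from 5 to 60 days post anthesis, and the leaves were fully expanded. RNA of 3 biological replicates was pooled before library making, so each species and organ is 1 library and no group has a replicate. No test was run on these families, because they were chosen for the pattern described here. The sheets list miRNAs only and hold no transcript that marks an organ, so the organ labels were not checked against markers. The reads listed under conserved names numbered 1132791, 412734, 937585 and 246508 in C. frutescens stem, flower, fruit and leaf, and 1412110, 1079538, 613569 and 811863 in the same organs of C. chinense.

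Plant miRNAs are cut by a Dicer-like enzyme from hairpin precursors, are loaded onto Argonaute proteins and guide the cleavage of matching transcripts. Pairing with a target tolerates mismatches least near the 5′ end of the miRNA, whose bases 2 to 8 are called the seed, so the position of that end matters. Other small RNAs of similar size are cut from tRNAs, whose mature 3′ end carries the letters CCA, added after transcription, behind the stem and loop of the T arm. miR894 is an entry often traced to tRNA or rRNA pieces. No target of either family is assigned here.

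The printed sequences are shown because they hold what both families share apart from their reads. For miR3711 the 8 libraries printed 6 different sequences, given here 5′ to 3′ with capitals for the 21 bases common to all 8.
C. frutescens flower: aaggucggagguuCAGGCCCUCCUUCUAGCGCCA
C. frutescens stem, fruit and leaf: cggagguuCAGGCCCUCCUUCUAGCGCCA
C. chinense leaf: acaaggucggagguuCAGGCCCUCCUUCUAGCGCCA
C. chinense stem: gagguuCAGGCCCUCCUUCUAGCGCCA
C. chinense flower: uCAGGCCCUCCUUCUAGCGCCA
C. chinense fruit: CAGGCCCUCCUUCUAGCGCCA

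For miR894 there were 3 different sequences, with the same meaning of the capitals and again 21 common bases.
C. frutescens stem, flower, fruit and leaf, and C. chinense leaf: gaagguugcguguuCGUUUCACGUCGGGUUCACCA
C. chinense fruit: uCGUUUCACGUCGGGUUCACCA
C. chinense stem and flower: CGUUUCACGUCGGGUUCACCA

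All 8 printed miR3711 sequences had 1 common 3′ end and differed only in where they began, from 36 nt in C. chinense leaf to 21 nt in C. chinense fruit. The same held for the 8 printed miR894 sequences, of 35 nt in the 5 libraries with many reads and of 21 or 22 nt in the others. Of the 144 entry names listed in all 8 libraries, 11 had such a common 3′ end, these 2 and names with 1 sequence throughout included. Because the printed 5′ ends differed, the printed bases at seed positions 2 to 8 took 6 different forms in miR3711 and 3 in miR894. Which read of an entry is printed is not stated, so these forms need not describe most of its reads. A database sequence of either miRNA was not used here, and neither printed sequence was read as a mature form.

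All 16 printed sequences, with a common 3′ end within each family, ended in CCA. Among the 5899 other conserved entries 153 did (2.59%), and 74 of the 3386 predicted miRNAs (2.19%). Upstream of this end both families had 5 bases that can pair with 5 others across a loop of 7 bases. The layout searched was this stem, with A-U, G-C or G-U pairs, then 8 bases of any kind, then CCA at the 3′ end, which needs at least 28 nt. The capitals in the longest form of each family mark the paired bases and the CCA end.
miR3711: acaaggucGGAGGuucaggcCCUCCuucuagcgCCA
miR894: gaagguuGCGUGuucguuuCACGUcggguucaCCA
miR8175: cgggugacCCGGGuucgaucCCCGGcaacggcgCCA
miR2275: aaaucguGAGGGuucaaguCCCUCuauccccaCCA
miR5139: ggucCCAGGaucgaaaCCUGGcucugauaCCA

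All 10 member sequences of at least 28 nt matched the layout, with 5 Watson-Crick pairs in miR3711 and 4 plus 1 G-U pair in miR894. The layout was set after these sequences were seen, and they are nested forms of 1 sequence per family. Their full match therefore follows from the choice of layout and is no separate observation per library. Among the 611 other conserved entries of that length 4.58% ended in CCA, and 20 matched the whole layout (3.27%), so most long entries with a CCA end matched. The 20 came from 3 families, miR8175, miR2275 and miR5139, shown here in the form printed in the library where each had most reads. A match describes the letters and was not tested as a sign of origin. No read was aligned to a tRNA gene here.

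The level of miR3711 came in 2 ranges with no library between them. It was listed with 26942, 102023, 4078 and 12915 reads in C. frutescens stem, flower, fruit and leaf, and with 4, 1, 1 and 52798 reads in the same organs of C. chinense. In reads per 1000000 listed reads (RPM) this made 23784, 247188, 4349 and 52392 in C. frutescens and 2.83, 0.926, 1.63 and 65033 in C. chinense. All 4 organs of C. frutescens and the leaf of C. chinense were thus high, and the stem, flower and fruit of C. chinense were close to zero.

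In C. frutescens flower miR3711 was the second most read family, with 24.7% of the listed reads (95% exact Clopper-Pearson interval 24.6 to 24.9), behind miR166 alone. Its rank among families was 4 in C. frutescens stem and leaf and in C. chinense leaf, and 11 in C. frutescens fruit. In C. chinense stem, flower and fruit its 4, 1 and 1 reads lay at the level of many rare names: 343 families had 1 to 4 reads in that stem library, and 118 and 141 families had a single read in the flower and fruit libraries. The 95% intervals there ran from 0.772 to 7.25 RPM in stem, from 0.0235 to 5.16 in flower and from 0.0413 to 9.08 in fruit. Intervals cover counting error only, since the reads carry no molecular identifiers.

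miR894 had the same libraries high and the same libraries low. It was listed with 7907, 20562, 6112 and 1552 reads in C. frutescens stem, flower, fruit and leaf, and with 4, 1, 1 and 7230 in those of C. chinense. In RPM this made 6980, 49819, 6519 and 6296 in C. frutescens and 2.83, 0.926, 1.63 and 8905 in C. chinense. The counts of both families were equal in each of the 3 low libraries, 4 and 4 in stem, 1 and 1 in flower, and 1 and 1 in fruit.

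**Figure D1:**
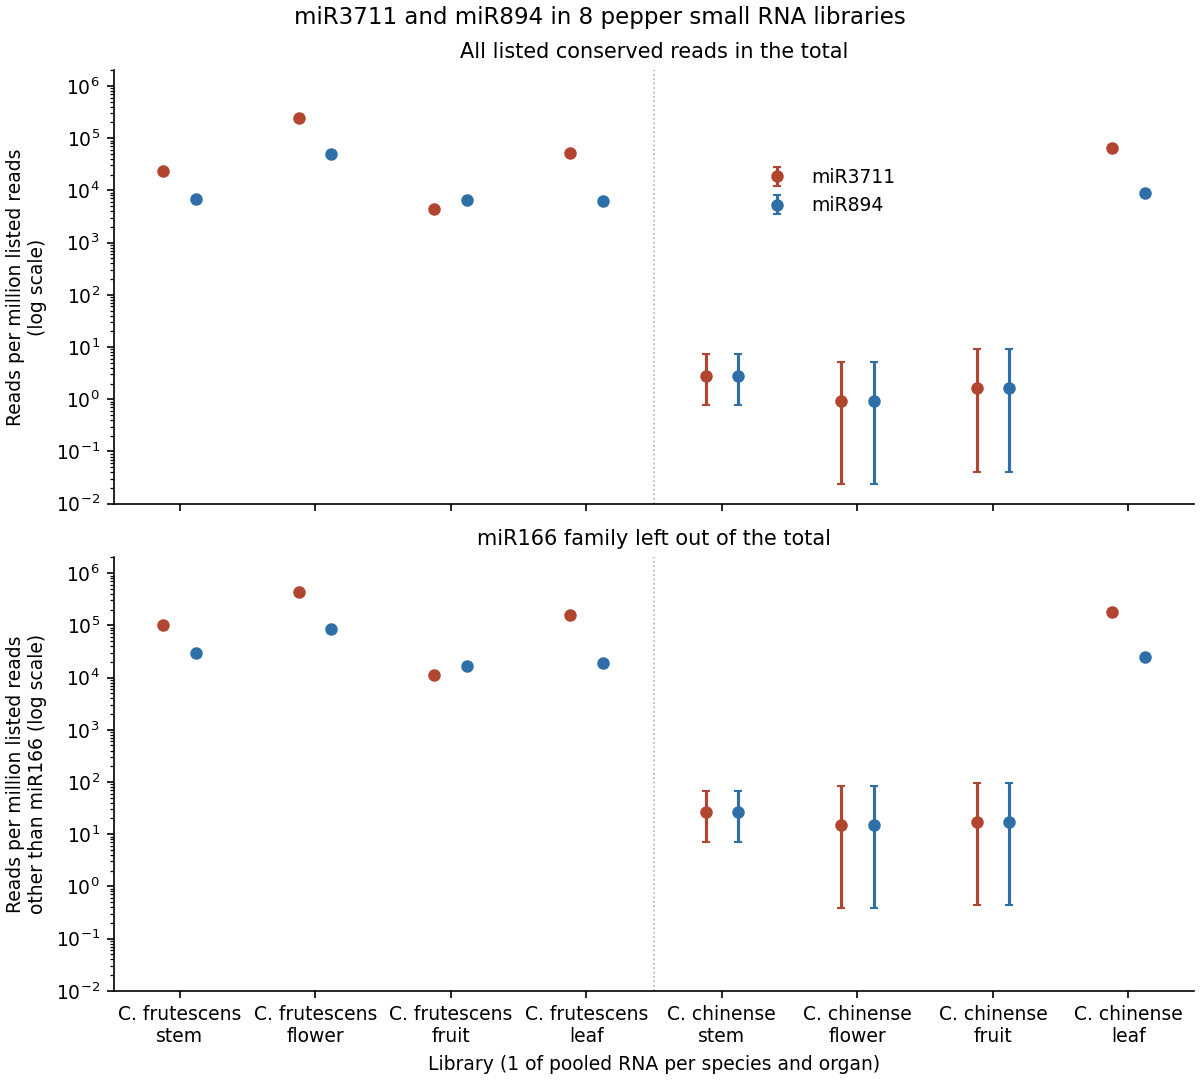
Levels in RPM (log axis) of miR3711 and miR894 in each of the 8 libraries, C. frutescens left and C. chinense right of the dotted line, with 95% counting intervals, over all listed conserved reads (top) and without the miR166 family in the total (bottom). In both panels the 4 C. frutescens libraries and C. chinense leaf lie high and the other 3 C. chinense libraries lie low, with 4, 1 and 1 reads of each family.

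Among the 5 high libraries the families differed in how far they spread. miR3711 ranged 56.8-fold, from 4349 RPM in C. frutescens fruit to 247188 in C. frutescens flower. miR894 ranged 7.91-fold, between 49819 RPM in C. frutescens flower and 6296 RPM in its leaf, and its levels in C. frutescens stem, fruit and leaf lay within 1.11-fold of each other over all listed reads. These ranges depend on the scaling: with TMM factors they were 192-fold for miR3711 and 26.4-fold for miR894, and without miR166 in the total 39.0-fold and 5.25-fold. The miR894 levels of C. frutescens stem, fruit and leaf lay within 1.80-fold without miR166 and 2.22-fold without miR166 and miR6300. The step between the lowest high library and the highest low one was 1535-fold for miR3711 and 2223-fold for miR894.

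Because miR166, a regulator of HD-ZIP III transcription factors, took 42.5% to 93.9% of the listed reads, shares were also taken without it. Of the reads other than miR166, miR3711 made up 10.1%, 43.0%, 1.10% and 15.8% in C. frutescens stem, flower, fruit and leaf, and 0.00261%, 0.00151%, 0.00173% and 17.9% in those of C. chinense. miR894 made up 2.98%, 8.67%, 1.65% and 1.90% in C. frutescens and 0.00261%, 0.00151%, 0.00173% and 2.45% in C. chinense. Together the pair held 51.7% of the reads other than miR166 in the flower of C. frutescens and 20.3% in the leaf of C. chinense. Without miR166 in the total the step was 422-fold for miR3711 and 633-fold for miR894, and the same 5 libraries stood above it.

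The low libraries differed from the others in further measures, some of which depend on the total. miR166 took 89.1%, 93.9% and 90.6% in C. chinense stem, flower and fruit, against at most 76.6% in the other libraries (C. frutescens stem). miR6300, an entry often traced to a tRNA, took 1.58%, 0.330% and 1.23% there, and between 4.14% (C. frutescens flower) and 14.2% (C. chinense leaf) elsewhere. Taken without miR166, its shares were 14.6%, 5.38% and 13.1% there and 7.202% to 39.1% elsewhere, so the ranges overlapped. miR482, which targets NBS-LRR resistance genes, held 62.4%, 67.4% and 65.5% of the reads other than miR166 there, and 31.6% to 41.5% elsewhere. Over all listed reads its direction was the other way, with 6.77%, 4.13% and 6.16% there and 8.86% to 20.7% elsewhere. By listed reads the low libraries were not the shallow ones, with 613569 to 1412110 against 246508 in C. frutescens leaf. Without miR166, C. chinense fruit and flower had the fewest reads of all libraries. They held 57695 and 66190, against 81746 in C. frutescens leaf. Sequencing depth itself is not known, since no total of sequenced reads is given. The part of RNA quality, ligation or library making in these differences was not tested, and fewer cells with the RNA cannot be told apart from less RNA per cell in whole organs.

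The ratio of miR3711 to miR894 within a library does not depend on the total. It was 3.41 in C. frutescens stem (95% conditional counting interval 3.32 to 3.49), 4.96 in flower (4.89 to 5.04), 0.667 in fruit (0.641 to 0.694) and 8.32 in leaf (7.89 to 8.78). In C. chinense leaf it was 7.30 (7.13 to 7.49). Fruit of C. frutescens was the one high library with more miR894 than miR3711. In C. chinense stem the counts were equal, with an interval from 0.186 to 5.37, and in flower and fruit 1 read stood against 1, with an interval from 0.0127 to 78.5. For stem, flower and fruit the C. frutescens ratio lay inside the C. chinense interval of the same organ, so a difference in ratio was not detectable at this depth.

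**Figure D2:**
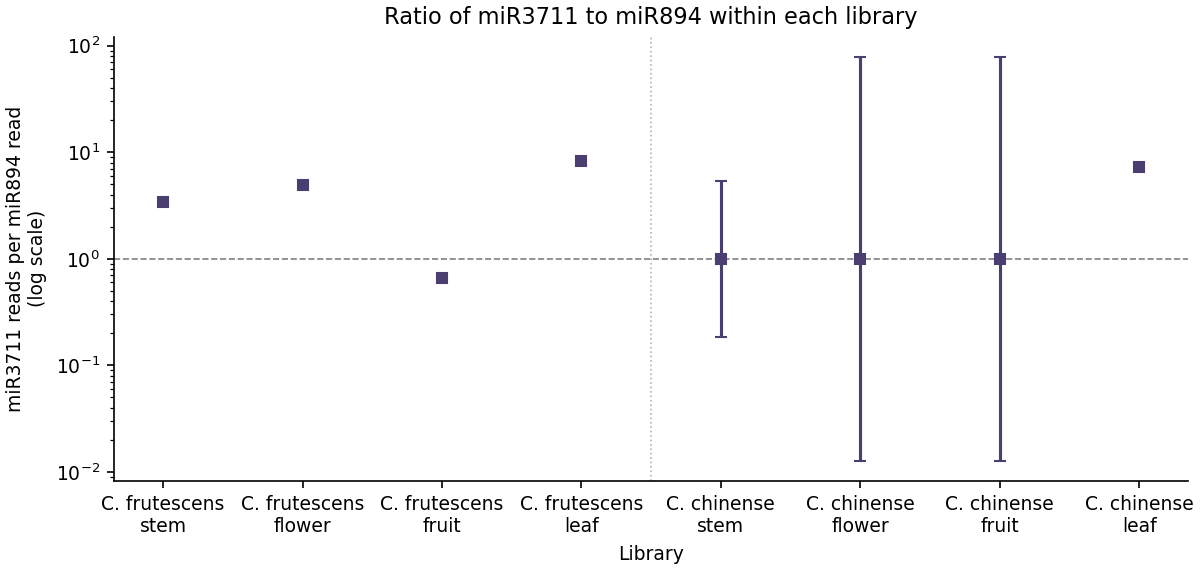
Reads of miR3711 per read of miR894 (log axis) in each library, C. frutescens left and C. chinense right of the dotted line, with 95% counting intervals and a dashed line at equal reads. The ratio lay between 3.41 and 8.32 in 4 of the 5 high libraries and at 0.667 in C. frutescens fruit, and the low libraries had wide intervals around 1.

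The species were compared within an organ as ratios of shares, 1 library against 1, which has no replicate check. In stem the ratio of C. frutescens over C. chinense was 8396 for miR3711 (counting interval 3279 to 30818) and 2464 for miR894 (962 to 9046). In flower the log2 ratios were 18.03 for miR3711 (interval 15.55 to 23.33) and 15.71 for miR894 (13.24 to 21.02). In fruit they were 11.38 for miR3711 (8.90 to 16.69) and 11.97 for miR894 (9.49 to 17.27). With miR166 left out of the total, the ratios in stem were 3886 for miR3711 and 1141 for miR894, the log2 ratios in flower 14.80 and 12.49, and those in fruit 9.31 and 9.90. Both families were thus far more abundant in C. frutescens in 3 organs, with an upper limit left wide by 1 to 4 reads in C. chinense.

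These values belong to the pattern for which the families were chosen and are a description. At a threshold of 4-fold, among families with 50 or more reads over the pair of libraries, both were called higher in C. frutescens in stem, flower and fruit, where 28.6%, 37.5% and 57.9% of all families tested were called higher. They took the first and second place by ratio among the 49, 40 and 57 families tested in these organs. Median log2 ratios over all families tested were 0.80 in stem, 0.98 in flower and 2.46 in fruit.

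In leaf the order was the other way. miR3711 stood at 52392 RPM in C. frutescens leaf and 65033 in C. chinense leaf, a ratio of 0.806 (counting interval 0.790 to 0.821). miR894 stood at 6296 in C. frutescens leaf and 8905 in C. chinense leaf, a ratio of 0.707 (0.669 to 0.747). Both were less than 4-fold apart, and of the 42 families tested in leaf 2.38% were called higher and 7.14% lower in C. frutescens. The median log2 ratio of these families was 0.18, against -0.31 for miR3711 and -0.50 for miR894.

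**Figure D3:**
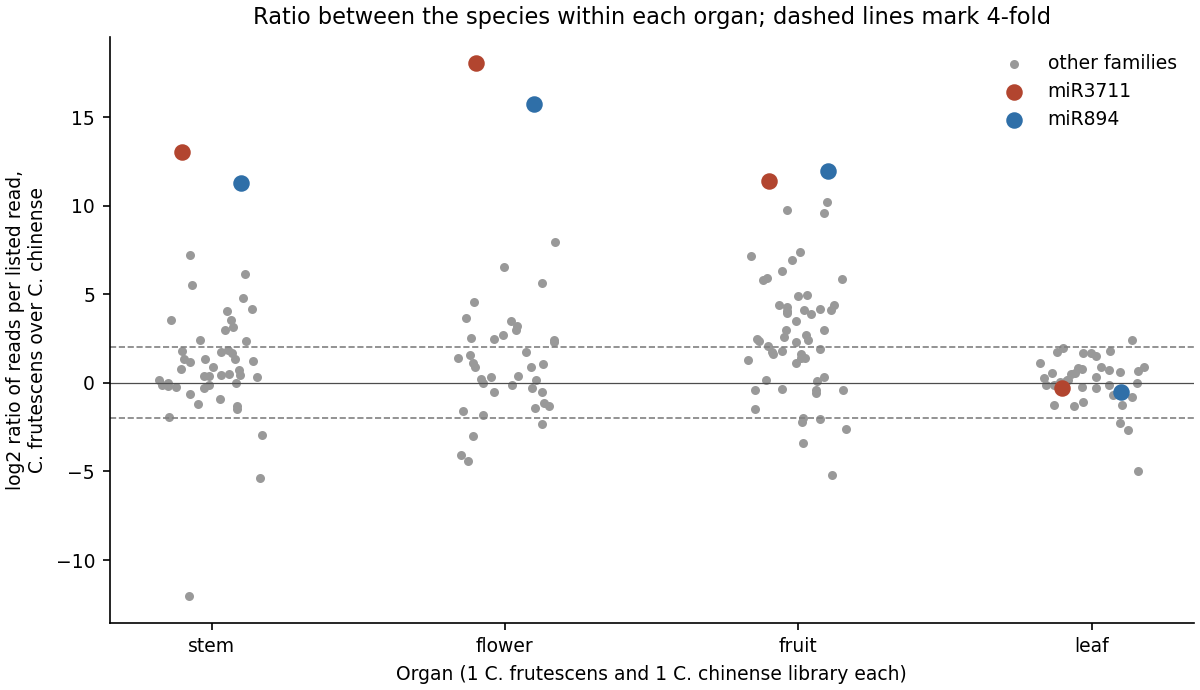
Log2 ratio of reads per listed read, C. frutescens over C. chinense, in 4 organs for miR3711, miR894 and the other families with 50 or more reads over the pair (grey), with dashed lines at 4-fold. In stem, flower and fruit both families lie above all other families, and in leaf they lie among them at -0.31 and -0.50.

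Within C. chinense, leaf stood far above the other organs. The log2 ratio of leaf over stem was 14.49 for miR3711 and 11.62 for miR894, of leaf over flower 16.10 and 13.23, and of leaf over fruit 15.28 and 12.42. Without miR166 in the total these were 12.74 and 9.87 for stem, 13.53 and 10.66 for flower, and 13.33 and 10.47 for fruit. The background of families called at least 4-fold higher in leaf was 36.7% against stem, 37.5% against flower and 30.4% against fruit. No other family tested had as high a ratio in any of these 3 contrasts.

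Within C. frutescens the organ with most of both families was the flower and not the leaf. For miR3711 leaf stood 2.20-fold above stem (counting interval 2.16 to 2.25) and 12.05-fold above fruit (11.6 to 12.5), and it held 0.212-fold the level of flower (0.208 to 0.216). For miR894 leaf held 0.126-fold the level of flower (0.120 to 0.133). At 4-fold both were called lower in leaf than in flower, as were 13.5% of families tested, and miR3711 was called higher in leaf than in fruit, as were 19.3%. The call against flower was lost for miR3711 without miR166 in the total, where the log2 ratio was -1.44 in place of -2.24, and for both families without miR166 and miR6300, at -1.10 for miR3711 and -1.85 for miR894. The value of miR3711 in leaf over stem was 1.22-fold with TMM and 1.38-fold without miR166 and miR6300. The leaf of C. frutescens held 0.902-fold the miR894 of its stem (0.854 to 0.953) and 0.966-fold that of its fruit (0.913 to 1.02). The last pair of libraries did not differ beyond counting error, and its log2 ratio of -0.05 turned to 0.20 without miR166 in the total and to 0.36 with DESeq2 size factors.

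For miR3711 the order of libraries from high to low was C. frutescens flower, C. chinense leaf, C. frutescens leaf, stem and fruit, then C. chinense stem, fruit and flower. It was the same under the 5 other totals and scalings tried. For miR894 C. frutescens flower came first under all of them, and the order among C. chinense leaf and C. frutescens stem, fruit and leaf depended on the total. The intervals of the 3 low libraries overlapped, so their order carries no information.

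A spread of at least 1000-fold between the highest and lowest library, with 3 reads standing in for an unlisted family, was reached by 6 of the 74 families with at least 50 reads in all (8.11%). Over all listed reads miR3711 had the largest spread, 266849-fold, and miR894 the second, 53782-fold. The others were miR6023 (5292-fold), miR2916 (4558-fold), miR8036 (1565-fold) and miR393 (1001-fold). The 5p arm of miR393 targets auxin receptor genes, but 8277 of its 8696 reads in C. frutescens fruit were listed under a 3p name, gma-miR393c-3p. Without miR166 in the total 4 of 73 families reached 1000-fold, with miR3711 at 28463-fold, miR2916 at 16243-fold, miR894 at 5737-fold and miR6023 at 2253-fold, while miR8036 and miR393 fell short at 929-fold and 398-fold. Over all listed reads the median of all 74 was 31.8-fold, and that of the 22 conserved land plant families among them 19.5-fold.

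The other wide families had another shape. miR6023, miR8036 and miR393 peaked in C. frutescens fruit, with 3514, 1295 and 8696 reads, and miR2916 peaked in C. chinense stem with 10490. Of the 37 families with at least 1000 reads in all, 4 had at most 4 reads in each of C. chinense stem, flower and fruit, namely miR3711, miR894, miR6023 and miR8036, a set put together after the values were seen. miR3711 and miR894 had over 1000 reads in 5 libraries each, and miR6023 and miR8036 in 1.

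**Figure D4:**
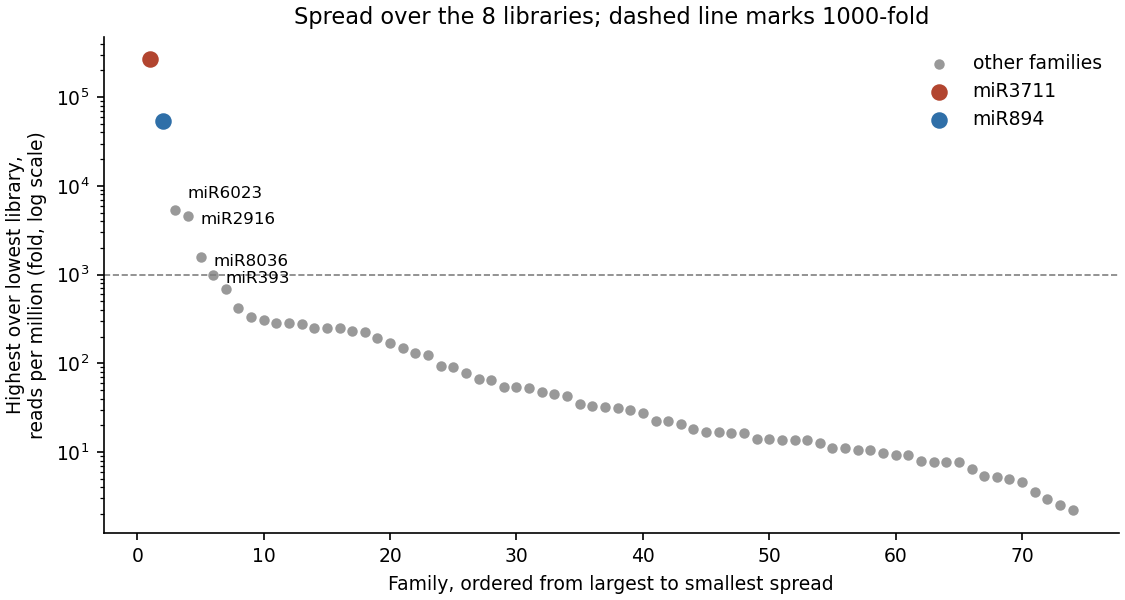
Highest over lowest library in RPM (fold, log axis) for the 74 families with at least 50 reads, ordered by spread, with a dashed line at 1000-fold. miR3711 and miR894 lead with 266849-fold and 53782-fold, followed by miR6023 with 5292-fold, all over the listed conserved reads. Without miR166 in the total, not plotted, they stood at 28463-fold and 5737-fold.

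Both families were printed longer where they had many reads. In libraries with many reads miR3711 was printed with 29 to 36 nt and miR894 with 35 nt, and in the low libraries miR3711 with 27, 22 and 21 nt and miR894 with 21, 21 and 22 nt in C. chinense stem, flower and fruit. Among all other conserved entries the median length did not move one way with the reads: it was 24 nt at 1 read and at 2 to 4 reads, 23 nt at 5 to 9, 22 nt at 10 to 99, 24 nt from 100 to below 1000 and 26 nt at 1000 or more, where 67.9% were over 24 nt. Other names with at least 1000 reads in 1 library and at most 4 in another gave 34 such pairs of libraries, from 12 names, and in 32 the sequence was longer in the library with more reads. These pairs reuse names and libraries and are not separate observations. In all of them the library with more reads was C. frutescens fruit or C. chinense stem. A longer printed form in the library with more reads was therefore also seen for other names, in those libraries. Printed lengths need not be those of most reads, as it is not stated which read is printed.

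**Figure D5:**
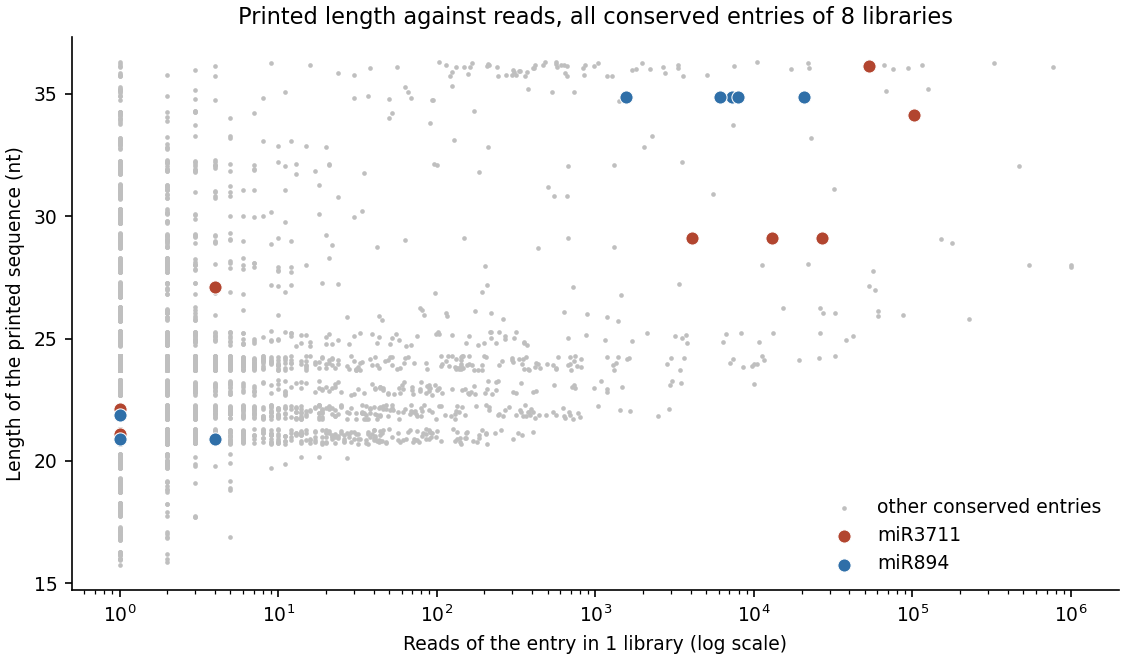
Length of the printed sequence in nt against reads (log axis) for every conserved entry of the 8 libraries (grey, with small vertical scatter), with miR3711 and miR894 in colour. The 10 member entries with over 1000 reads were 29 to 36 nt long and the 6 with 1 to 4 reads 21 to 27 nt.

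No printed sequence of another family shared 16 or more bases with miR3711, in either orientation, among conserved or predicted entries. For miR894 there was 1 such family, miR5077, named osa-miR5077 after rice. Its most frequent printed form differs from the miR894 end of the same length by 1 base, U3G, counted from 1 at the 5′ end of the 21 nt form with the miR894 base first. The differing base is in capitals.
miR894: cgUuucacgucggguucacca
miR5077: cgGuucacgucggguucacca

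miR5077 had 31, 44, 6 and 4 reads in C. frutescens stem, flower, fruit and leaf, and 1, 2, 2 and 26 in those of C. chinense. In the 5 libraries with many miR894 reads these were 0.392%, 0.214%, 0.0982% and 0.258% of the miR894 reads in C. frutescens stem, flower, fruit and leaf and 0.360% in C. chinense leaf. In C. chinense stem 1 read of miR5077 stood beside 4 of miR894, and in flower and fruit 2 beside 1. How many mismatches were allowed when reads were named is not given in the sources used here, so reads of one family may be listed under the other.

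Over the 8 libraries miR894 was the family most like miR3711 by Pearson r, at 0.99 on log2(RPM + 1), among 73 other families. Next came miR7767 (0.94), miR8155 (0.92), miR5077 (0.91) and miR168, which targets AGO1 (0.90). For miR894 the families after miR3711 were miR168 (0.93), miR8155 (0.93), miR482 (0.91) and miR7767 (0.89). miR3711 and miR894 were chosen together for their pattern over these same libraries, so the high r between them follows from the choice. The points share the library totals. The r of miR482 with miR894 was -0.96 once miR166 was left out of the total, while that of miR3711 with miR894 was still 0.99. By Spearman rank correlation miR5139 was more like miR3711 than miR894 was, at 0.952 against 0.929.

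The levels of these neighbours spanned far less. miR7767 had 212, 465, 101 and 568 reads in C. frutescens stem, flower, fruit and leaf, and 23, 13, 12 and 1035 in those of C. chinense. miR8155 had 114, 56, 219 and 81 in C. frutescens and 2, 3, 8 and 175 in C. chinense. Both were low in the same 3 C. chinense libraries as miR3711 and miR894. There miR7767 kept 12 to 23 reads. miR8155 was as nearly absent in C. chinense stem, where its 2 reads stood beside 4 of each member, and it had 3 and 8 in flower and fruit.

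Of a list of 10 entries often traced to tRNA or rRNA pieces, 9 were measured, led by miR6300, miR8175, miR2916 and miR5083. Their summed share was 8.69%, 5.10%, 8.43% and 10.4% in C. frutescens stem, flower, fruit and leaf, and 2.64%, 0.530%, 1.58% and 15.0% in those of C. chinense. Over all listed reads it was lower in the low libraries than in any other. Without miR166 in the total it was 37.1%, 8.87%, 21.3% and 31.3% in C. frutescens and 24.3%, 8.64%, 16.8% and 41.3% in C. chinense, so the low libraries overlapped with the others. All 9 families had reads in all 8 libraries. At 4-fold, 2 of the 7 listed families tested were higher in C. frutescens stem, 4 of 6 in flower and 3 of 6 in fruit. Lower were 1, 0 and 2. The median log2 ratios were 0.80, 2.70 and 1.15. Of all families tested 28.6%, 37.5% and 57.9% were higher in these organs, with medians of 0.80, 0.98 and 2.46. Lower among all were 3 of 49, 4 of 40 and 6 of 57. In leaf 0 of 6 were higher and 1 lower, with a median of -0.08, against 2.38% higher and 7.14% lower among all families tested.

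Entries with the same 3′ layout did not all follow miR3711 and miR894. miR8175 had 2209, 1975, 739 and 2685 reads in C. frutescens stem, flower, fruit and leaf, and 3345, 981, 648 and 2738 in those of C. chinense. miR2275 had 175, 1418, 109 and 569 reads in C. frutescens and 533, 408, 333 and 1184 in C. chinense. Both had at least 333 reads in each of the 3 libraries that nearly lacked miR3711 and miR894. miR5139 as a family had 1314, 673, 30 and 79 reads in C. frutescens and 184, 7, 7 and 1269 in C. chinense. It was low in flower and fruit of C. chinense and not in its stem. Its printed form matched the layout in only 4 libraries, with 3440 of its 3563 reads. The counts of 30, 79, 7 and 7 came from libraries whose printed form did not match, so they are not reads of a layout entry.

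Reads of all entries with a CCA end made up 3.54%, 30.9%, 1.39% and 7.35% in C. frutescens stem, flower, fruit and leaf, and 0.410%, 0.184%, 0.310% and 11.3% in those of C. chinense. Without miR3711 and miR894 these shares were 0.462%, 1.23%, 0.304% and 1.48% in C. frutescens and 0.409%, 0.184%, 0.310% and 3.95% in C. chinense. Over all listed reads the 3 low libraries thus lay between 0.184% and 0.409% for the other CCA entries, and C. frutescens stem and fruit at 0.462% and 0.304%. These shares depend on the total, as miR166 held 89.1% to 93.9% of the low libraries and at most 76.6% of the others. Shares of CCA reads without miR166 were not taken, so no order of the libraries is drawn from these values. The share of printed CCA ends among entries was alike, from 2.07% in C. chinense leaf to 3.92% in C. chinense fruit.

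Conserved families of land plants spanned less between libraries. All 24 on the list were measured, led by miR166, miR396, miR162 and miR159, and at least 22 had reads in each library. The largest spread among the 22 with at least 50 reads was the 1001-fold of miR393 over all listed reads. At 4-fold, 5 of 20 tested were higher in C. frutescens stem, 5 of 17 in flower and 13 of 22 in fruit. In leaf it was 0 of 17. Lower were 1, 2, 1 and 0 in stem, flower, fruit and leaf. The median log2 ratios were 0.80, -0.11, 2.39 and 0.07. Of all families tested 28.6%, 37.5%, 57.9% and 2.38% were higher, with medians of 0.80, 0.98, 2.46 and 0.18. Lower among all were 3 of 49, 4 of 40, 6 of 57 and 3 of 42. The 4-fold counts thus do not set the list apart.

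Families named only from mosses, lycophytes or conifers, other than these 2, were scarce everywhere. There were 83 of them, led by miR1024, miR1049, miR1026 and miR902, with 17, 14, 14 and 16 reads over all libraries. Their reads together numbered 35, 27, 123 and 11 in C. frutescens stem, flower, fruit and leaf, and 21, 21, 23 and 37 in those of C. chinense. None had the 50 reads in a pair of libraries needed for the 4-fold comparison.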

How the data were processed

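The authors deposited raw read counts per miRNA entry in 16 sheets, 8 of conserved and 8 of predicted miRNAs, per the file headers. Per the labels' protocols, libraries were made with the TruSeq small RNA kit and sequenced on a Genome Analyser II. How reads were trimmed, aligned and named is not given in the sources used here. The sheets give no total of sequenced reads, so shares refer to listed conserved reads. Each entry has 1 printed sequence, of 16 to 36 nt. Whether this is the longest, the most frequent or another read of the entry is not stated. Of 1247 names listed in at least 2 libraries, 254 (20.4%) were printed in both orientations, sharing 16 or more bases with the reverse complement, and held 0.0733% of reads. miR3711 and miR894 had 1 orientation throughout, which compares the libraries only with each other. Whether it is the orientation of the database sequences or their reverse complement was not checked. The copies of the C. chinense stem and leaf sheets have 1 empty line each, whose entry was not analysed here.

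Entries of 1 miR number were summed in pandas 2.3.3 under Python 3.11.15 with numpy 2.4.6. Shares have exact Clopper-Pearson and ratios conditional binomial 95% intervals (scipy 1.17.1). A family without reads entered ratios at a floor of 3 reads. No test was run, since each group is 1 library and the families were chosen for their pattern. Scalings by TMM (edgeR 4.0.16) and size factors (DESeq2 1.42.0) in R 4.3.3, over 71 families with at least 10 reads in 2 libraries, were alternatives. The ratio and threshold code was tested on simulated counts. Plots used matplotlib 3.10.9.

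Families named besides miR3711 and miR894 are the 5 most like each, those with a spread of at least 1000-fold, up to 4 of each list by mean share, those sharing 16 bases, and miR166, miR482 and miR6300. The search for the 3′ layout and the families it names were added after the sequences were seen. The members and lists were chosen with earlier results of these data known.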

Additional observations from a re-analysis of the deposited data

Results flagged for a closer look

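The species ratio pointed one way in leaf and the other way in the remaining organs, with 1 library per species and organ, and the difference between organs was not tested. For miR3711 the log2 ratio of C. frutescens over C. chinense was -0.31 in leaf, against 13.04 in stem, 18.03 in flower and 11.38 in fruit. For miR894 it was -0.50 in leaf, against 11.27 in stem, 15.71 in flower and 11.97 in fruit.

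Organ ratios also differed widely between the species, again untested. The log2 ratio of leaf over flower was -2.24 in C. frutescens and 16.10 in C. chinense for miR3711, and -2.98 in C. frutescens and 13.23 in C. chinense for miR894. For miR894 leaf over stem was -0.15 in C. frutescens and 11.62 in C. chinense, and leaf over fruit -0.050 in C. frutescens and 12.42 in C. chinense. The leaf over fruit value of C. frutescens has no set direction. Its counting interval ran from -0.131 to 0.030, and it was 0.20 without miR166 in the total.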

How the results depend on the processing

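No paired analysis was possible because no result here comes from a test and the labels give no replicate numbers; species were set against each other within an organ, as values, and no replicate could be left out. The log2 ratios of C. frutescens over C. chinense kept their sign under all 4 other totals or scalings. In leaf miR3711 stood at -0.18 without miR166, -0.45 without miR166 and miR6300, -0.83 with TMM and -0.76 with DESeq2 factors, and miR894 at -0.37, -0.63, -1.02 and -0.95. In flower miR3711 stood at 14.80 without miR166 and 14.82 without miR166 and miR6300, and miR894 at 12.49 and 12.51. The other totals and scalings were applied to the organ ratios and ranges after the data were seen, and turned only the miR894 ratio of leaf over fruit in C. frutescens, which was not called. RPM values changed 1.74-fold to 16.3-fold when miR166 left the total.

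The number of families apart in stem, flower, fruit and leaf was 17, 19, 39 and 4 at 4-fold. At 2-fold it was 30, 29 and 15 in stem, flower and leaf, and at 10-fold 10 and 1 in flower and leaf. With at least 10 reads it was 32, 31 and 8 in stem, flower and leaf, and with no minimum 40, 43, 75 and 28 in the 4 organs. At 100-fold 23 families reached the spread in place of 6. By Spearman rank correlation 3 of the 5 families most like miR3711 and 2 of those most like miR894 were again among the top 5. With entries of at most 24 nt alone, miR3711 was left only in C. chinense flower and fruit and miR894 only in C. chinense stem, flower and fruit, because their other printed forms are longer. In these 3 libraries 1 to 4 reads limit every ratio.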
